A study of Mus musculus with 6 samples.

Results

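Flavin-containing monooxygenases (FMOs) are flavoproteins of the endoplasmic reticulum that use FAD, NADPH and oxygen to add an oxygen atom to nitrogen or sulfur atoms of small molecules, among them drugs, dietary amines and sulfur metabolites. In adult mouse liver, Fmo1 and Fmo5 are the forms usually found in males, and Fmo2 is best known from lung. The genes described here, Fmo1, Fmo2, Fmo4 and Fmo5, were taken by symbol, and all 4 were found among the 12366 genes measured. They were compared in livers that lacked Acss2 (Acss2-KO, 3 libraries) and in wild-type livers (WT, 3 libraries). ACSS2 converts acetate to acetyl-CoA in the cytosol and the nucleus. The mice of both genotypes were C57BL/6 males, 22 weeks old, kept on chow and fasted for 48 h before the liver was taken, and the deletion is written Acss2-/- with no driver line named. Expression is given as CPM, read counts scaled to the total of each library.

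Acss2 itself was at 1.37, 3.56 and 2.35 CPM in Acss2-KO libraries and at 74.0, 81.0 and 73.5 CPM in WT libraries. Estimated depth ranged from 21.8 to 28.6 M reads in the Acss2-KO libraries and from 23.3 to 30.7 M reads in the WT libraries. Hepatocyte markers summed to between 104100 and 115800 CPM in Acss2-KO libraries and between 94020 and 114900 CPM in WT libraries. A pair of libraries stood apart in genes of other tissues. The pancreatic protease gene Prss2 reached 820 CPM in WT replicate 2 and 155 CPM in Acss2-KO replicate 1. It was at 70.5 CPM in Acss2-KO replicate 3 and 69.6 CPM in WT replicate 3, libraries that stay when the pair is left out. It was at 1.87 CPM in Acss2-KO replicate 2 and 3.27 CPM in WT replicate 1. The muscle genes Acta1 and Ckm reached 199.5 and 41.9 CPM in Acss2-KO replicate 1. The changes of Fmo genes and the counts of related genes are therefore also given without this pair.

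Fmo4, Fmo1 and Fmo2 lie side by side on the minus strand of chromosome 1 (coordinates as deposited, which match GRCm38). Fmo4 (ENSMUSG00000026692) spans chr1:162793188-162813972, Fmo1 (ENSMUSG00000040181) spans chr1:162829561-162866610 and Fmo2 (ENSMUSG00000040170) spans chr1:162874317-162898726. Gaps of 15.6 kb between Fmo4 and Fmo1 and of 7.7 kb between Fmo1 and Fmo2 separate them. Fmo5 (ENSMUSG00000028088) lies apart on the plus strand at chr3:97628804-97655282.

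Promoter windows from RefSeq (GRCm38.p6, 300 bases each, of which the last 50 follow the start site) matched 3 of the 4 genes, Fmo2, Fmo4 and Fmo5. The windows of Fmo2, the gene that rose, and of Fmo5, the highest of the 4 per length in both genotypes, are shown because the log2 fold changes of these genes had opposite signs. The table holds 2 start sites for Fmo2, and the windows of these sites, at chr1:162898709-162899008 and chr1:162898444-162898743 on the minus strand, overlap. The Fmo5 window is chr3:97628769-97629068 on the plus strand. Capitals mark matches to the motifs searched.
Fmo2 outer start: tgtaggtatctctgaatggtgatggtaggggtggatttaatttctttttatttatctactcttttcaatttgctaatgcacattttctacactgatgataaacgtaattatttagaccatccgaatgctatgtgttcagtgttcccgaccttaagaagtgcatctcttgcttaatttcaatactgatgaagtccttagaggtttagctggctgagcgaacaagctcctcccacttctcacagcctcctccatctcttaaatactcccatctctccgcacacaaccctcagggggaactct
Fmo2 inner start: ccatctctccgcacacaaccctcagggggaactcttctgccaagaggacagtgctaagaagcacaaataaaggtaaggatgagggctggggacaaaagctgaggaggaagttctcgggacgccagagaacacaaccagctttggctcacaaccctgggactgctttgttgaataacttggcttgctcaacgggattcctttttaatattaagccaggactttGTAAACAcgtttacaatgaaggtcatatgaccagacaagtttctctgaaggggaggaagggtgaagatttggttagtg
Fmo5: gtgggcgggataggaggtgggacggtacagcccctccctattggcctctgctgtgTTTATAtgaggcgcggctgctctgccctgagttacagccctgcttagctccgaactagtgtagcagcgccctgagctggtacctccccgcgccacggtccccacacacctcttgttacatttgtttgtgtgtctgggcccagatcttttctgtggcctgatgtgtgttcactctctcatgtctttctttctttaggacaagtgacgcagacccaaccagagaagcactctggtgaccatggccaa

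The motifs searched on both strands were the forkhead site GTAAACA, the aryl hydrocarbon receptor core GCGTG, the E-box CACGTG, the antioxidant response core TGACNNNGC, the HNF1 core GTTAAT and the TATA box TATAAA. The inner Fmo2 window held 1 forkhead match, 28 bases before the start, and 3.65% of all 32851 windows held this motif. The outer Fmo2 window and the Fmo4 window held none of the 6 motifs. The Fmo5 window held 1 TATA box match on the opposite strand, 195 bases before the start, and 13.6% of all windows held that motif. The shares of all windows were 32.4% for GCGTG, 7.15% for CACGTG, 12.4% for TGACNNNGC and 7.10% for GTTAAT. The windows also differed in base composition, with 56.0% GC and 10 CpG in the Fmo5 window against 41.3% GC and 5 CpG in the outer Fmo2 window, and the median over all windows was 52.7% GC and 7 CpG. A match describes the letters only, and factor binding was not measured.

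Fmo2 was the only one of the 4 genes that passed the test (limma on log2(CPM + 1), Benjamini-Hochberg adjustment over 9355 genes, threshold 0.05). Fmo2 was at 142, 95.7 and 177 CPM in Acss2-KO libraries and at 44.9, 34.5 and 34.1 CPM in WT libraries. Each Acss2-KO library lay above each WT library, and the lowest Acss2-KO library, replicate 2, was still above the highest WT library. The means were 138 ± 40.9 CPM in Acss2-KO liver and 37.9 ± 6.15 CPM in WT liver (SD, n = 3 each). Fmo2 thus rose 3.5-fold, by 1.81 on the log2 scale (SE 0.24, 95% interval 1.26 to 2.36, adjusted p = 0.0014 by limma). The count of 1 called gene among 4 stands beside a background of 36.5% of all tested genes called, 13.4% higher and 23.1% lower, and 1.41% of tested genes had a higher log2 fold change than Fmo2. The calls split into 1252 higher and 2161 lower genes as deposited, and into 1756 and 1669 with median-of-ratios, 1659 and 1796 with upper-quartile, and 1816 and 1641 with quantile scaling, which moved the median log2 fold change of tested genes to 0.01, -0.03 and 0.02, against -0.12 as deposited. Fmo2 rose by 1.94, 1.90 and 1.94 under these scalings, and by 1.71 (adjusted p = 0.00013) without both libraries high in genes of other tissues. In the authors' deposited table the log2 fold change of Fmo2 was 2.02, with an adjusted p of 1.1e-06.

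Fmo5, whose human form oxidises ketones by the Baeyer-Villiger reaction and acts little on the usual nitrogen and sulfur substrates, had the most reads of the 4. Its values were 288, 680 and 452 CPM in Acss2-KO libraries and at 837.5, 975.5 and 685 CPM in WT libraries. The groups did not overlap, but Acss2-KO replicate 2 and WT replicate 3 lay next to each other, at 680 and 685 CPM, while replicate 1 was the lowest Acss2-KO library. Group values that do not overlap were found in 52.9% of tested genes, and among these 4 genes in Fmo2 and Fmo5. The means were 473 ± 197 CPM in Acss2-KO liver and 833 ± 145 CPM in WT liver (SD, n = 3 each). The log2 fold change was -0.88 (SE 0.31, 95% interval -1.59 to -0.18), and the adjusted p of 0.053 by limma missed the threshold. Without Acss2-KO replicate 2 the log2 fold change was -1.19 and passed, with an adjusted p of 0.0087, and without both libraries high in genes of other tissues it was -0.45, with an adjusted p of 0.37.

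Fmo1, the classical hepatic form in male mice, oxygenates a wide range of amines and sulfides and can form taurine from hypotaurine. It was at 75.1, 284 and 205 CPM in Acss2-KO libraries and at 362, 372 and 271 CPM in WT libraries. Acss2-KO replicate 1 was by far the lowest library, while Acss2-KO replicate 2 lay above WT replicate 3, so the groups overlapped. The means were 188 ± 105.5 CPM in Acss2-KO liver and 335 ± 56.0 CPM in WT liver (SD, n = 3 each). The log2 fold change of -1.01 (SE 0.45, 95% interval -2.06 to 0.03) did not pass, with an adjusted p of 0.11 by limma. It passed without Acss2-KO replicate 2, at -1.41 with an adjusted p of 0.021, and was -0.37, with an adjusted p of 0.43, without both libraries high in genes of other tissues.

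Fmo4, the least studied form, was low in every library. It was at 10.6, 14.4 and 13.0 CPM in Acss2-KO libraries and at 12.2, 9.65 and 11.9 CPM in WT libraries, which corresponds to an estimated 277 to 370 reads per library. The groups overlapped, with means of 12.7 ± 1.95 CPM in Acss2-KO liver and 11.2 ± 1.39 CPM in WT liver (SD, n = 3 each). The log2 fold change was 0.15 (SE 0.18, adjusted p = 0.53 by limma), and its 95% interval ran from -0.26 to 0.56. Without both libraries high in genes of other tissues it was 0.17. In the authors' deposited table the log2 fold changes were 0.33 for Fmo4, -0.67 for Fmo1 and -0.66 for Fmo5, with adjusted p-values of 0.56, 0.16 and 0.17.

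**Figure D1:**
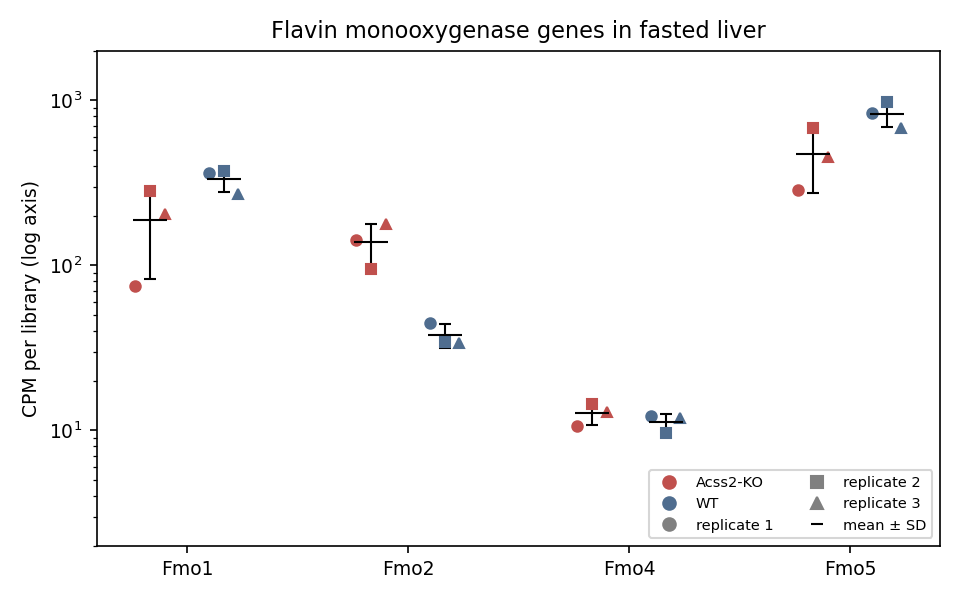
Level of each flavin monooxygenase gene in each library in CPM on a log axis, with Acss2-KO libraries left of WT libraries, symbols for the replicate numbers, and bars for the mean ± SD of 3 libraries. The Fmo2 groups are far apart, at 95.7 to 177 CPM in Acss2-KO and 34.1 to 44.9 CPM in WT libraries, while the Fmo1 and Fmo4 groups overlap and the Fmo5 groups nearly touch.

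The 4 genes also differed in how far the Acss2-KO libraries spread. The SD of log2 CPM of Fmo1 was 1.00 among Acss2-KO libraries and 0.25 among WT libraries, and 2.62% of tested genes had a larger Acss2-KO SD. Fmo5 had SDs of 0.62 in Acss2-KO and 0.26 in WT, Fmo2 had 0.45 in Acss2-KO and 0.23 in WT, and Fmo4 had 0.23 in Acss2-KO and 0.19 in WT. The median tested gene had 0.23 in Acss2-KO and 0.22 in WT. Fmo1, Fmo4 and Fmo5 shared the order of the Acss2-KO libraries, with replicate 2 highest and replicate 1 lowest. Fmo2 had another order, with replicate 3 highest and replicate 2 lowest. Acss2-KO replicate 1 was also the library high in muscle genes, and their part in the low Fmo1 and Fmo5 values was not tested.

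**Figure D2:**
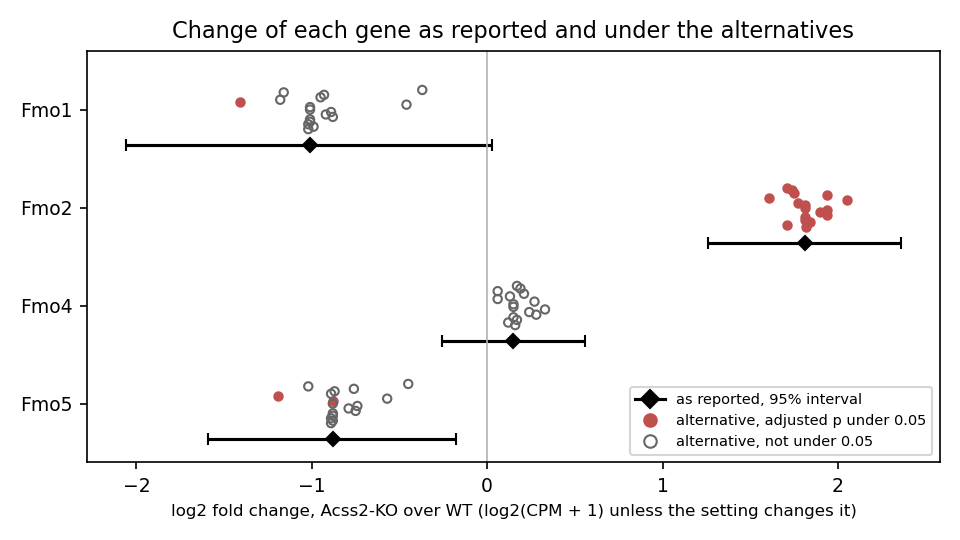
Log2 fold change, Acss2-KO over WT, of each gene as reported (diamond, with its 95% interval) and under each alternative processing or left-out library (circles, filled where the adjusted p was under 0.05). The Fmo2 circles lie between 1.61 and 2.05 and are all filled, while the Fmo1 circles run from -1.41 to -0.37 and the Fmo5 circles from -1.19 to -0.45, with most of them open.

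The makeup of the family was compared after dividing CPM by the exon length of each gene. Per kb of exon, Fmo5 was the highest in both genotypes, at 83.4 ± 34.7 CPM per kb in Acss2-KO and 147 ± 25.6 CPM per kb in WT liver. Fmo1 came next, at 43.7 ± 24.5 CPM per kb in Acss2-KO and 77.9 ± 13.0 CPM per kb in WT liver. Fmo2 was at 25.0 ± 7.38 CPM per kb in Acss2-KO and 6.83 ± 1.11 CPM per kb in WT liver, and Fmo4 at 4.24 ± 0.654 CPM per kb in Acss2-KO and 3.76 ± 0.467 CPM per kb in WT liver (SD, n = 3 each). Fmo5 lay above Fmo1 and Fmo2 above Fmo4 in each library of both genotypes, although the ranges of Fmo5 and Fmo1 over the Acss2-KO libraries overlapped. Fmo1 lay above Fmo2 in each WT library and in Acss2-KO replicates 2 and 3, and below it in Acss2-KO replicate 1, so this pair was not separated in Acss2-KO liver. In rank among 9204 genes per kb, Fmo2 stood at 1664 in Acss2-KO liver and at 4748 in WT liver.

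Fmo2 made up 26.3%, 8.30% and 19.5% of the length-scaled sum of the 4 genes in the Acss2-KO libraries, and 3.32%, 2.33% and 3.17% in the WT libraries. Each Acss2-KO share was above each WT share, and Acss2-KO replicate 2 was closest to WT. Fmo5 held a mean of 52.8% in Acss2-KO and 62.3% in WT liver, and Fmo1 held 26.3% in Acss2-KO and 33.1% in WT liver. The sum itself was 97.4, 208 and 164 CPM per kb in the Acss2-KO libraries and 244, 268 and 194 CPM per kb in the WT libraries, with overlap between the genotypes.

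**Figure D3:**
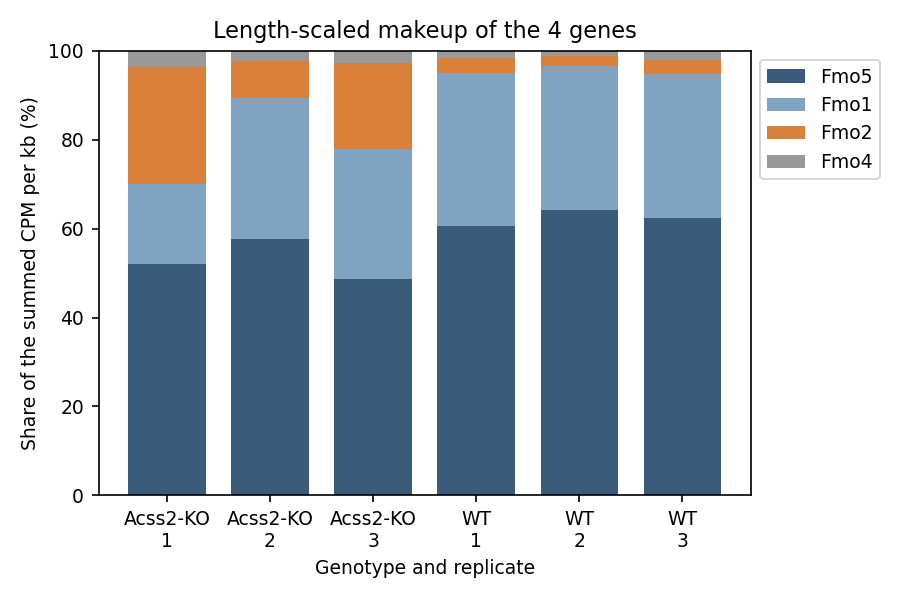
Share of each gene in the summed CPM per kb of the 4 flavin monooxygenase genes, in percent, with 1 bar per library and Acss2-KO libraries left of WT libraries. The Fmo2 segment takes 8.30% to 26.3% in Acss2-KO libraries and 2.33% to 3.32% in WT libraries.

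Ratios between the genes within a library do not depend on the library total, and the 6 possible pairs were compared between the genotypes. The log2 ratio of Fmo2 to Fmo1 was 0.92, -1.57 and -0.21 in the Acss2-KO libraries and -3.01, -3.43 and -2.99 in the WT libraries. The groups did not overlap, and the difference was 2.86. The difference was 2.72 for the ratio of Fmo2 to Fmo5 and 1.67 for that of Fmo2 to Fmo4, without overlap in either. The ratio of Fmo1 to Fmo5 differed by -0.13, and its groups overlapped (two-sided exact permutation p = 0.9). The other 5 pairs did not overlap, and each had an exact permutation p of 0.1, the smallest that 3 against 3 libraries allows, or 0.12 adjusted over the 6 pairs. The ratio of Fmo1 to Fmo5 changed sign, to 0.11, without Acss2-KO replicate 1.

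Within 500 kb of the 4 genes, 10 other genes were tested and are reported, and 4 of these passed, 2 higher and 2 lower. Of all tested genes, 36.5% passed, so this count is near the background. Prkab2, which encodes a regulatory subunit of AMP-activated protein kinase and starts 2.9 kb past the end of Fmo5, was at 12.1, 6.59 and 15.5 CPM in Acss2-KO libraries and at 4.47, 3.18 and 4.47 CPM in WT libraries. Prkab2 rose by 1.24 (adjusted p = 0.011), and Bcl9, a coactivator of Wnt signalling, rose by 0.83 (adjusted p = 0.0091). Acp6, a mitochondrial lysophosphatidic acid phosphatase, fell by 0.60 (adjusted p = 0.032), and Pde4dip, a centrosome and Golgi protein, fell by 0.82 (adjusted p = 0.028). All 4 lie around Fmo5 on chromosome 3, as do Chd1l, Notch2 and Sec22b, which did not pass. On chromosome 1 the reported neighbours were fewer, Mettl13, Vamp4 and Prrc2c, and none passed. Prrc2c, at 0.70 with an adjusted p of 0.056, passed under each of the 3 other scalings, with adjusted p-values of 0.027 to 0.028, and without Acss2-KO replicate 2. Acp6 missed the threshold under these 3 scalings (adjusted p = 0.052 to 0.066) and under 9 of 17 alternatives in all, and Pde4dip under median-of-ratios scaling (adjusted p = 0.052). The count of 4 was 0 without Acss2-KO replicate 3, 2 when WT replicate 1 or WT replicate 2 was left out, and 3 without both libraries high in genes of other tissues.

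**Figure D4:**
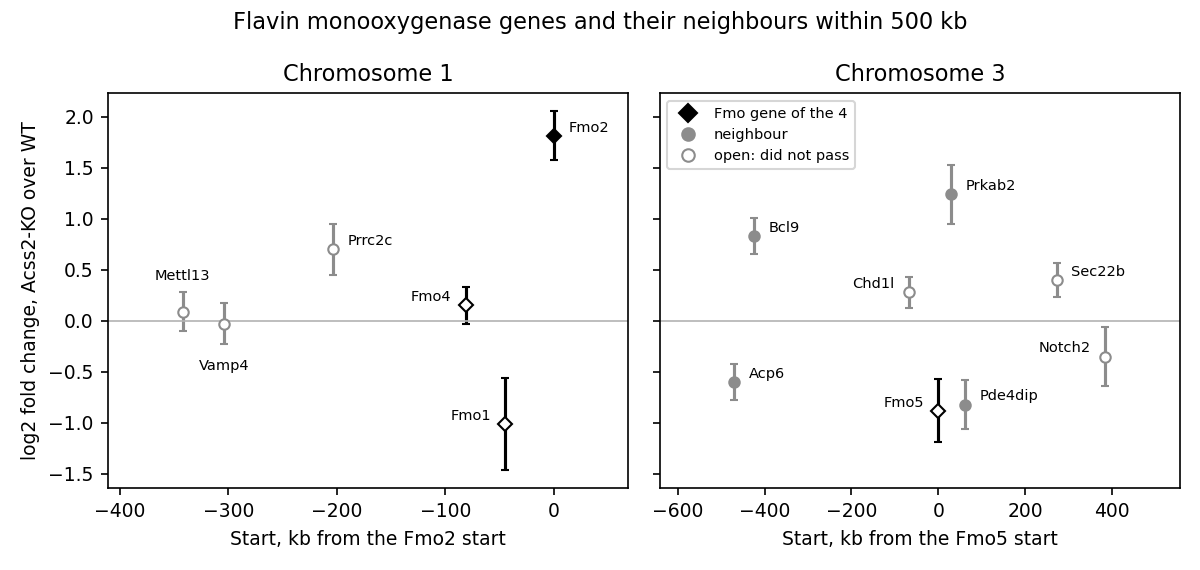
Log2 fold change, Acss2-KO over WT, with its SE, of the flavin monooxygenase genes (diamonds) and the other reported genes within 500 kb (circles), by distance in kb from the Fmo2 start (chromosome 1) or the Fmo5 start (chromosome 3). Filled symbols passed the test. On chromosome 1 Fmo2 at 1.81 stands above Fmo4 at 0.15 and Fmo1 at -1.01.

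The genes with the most similar profile over the 6 libraries were found by the root mean square difference of log2 values centred on the WT mean. For Fmo2 these were Nrg4 at 0.13, Rnf125 at 0.16 and Kctd13 at 0.16. Nrg4, a secreted ligand of the EGF family, was at 44.0, 26.0 and 56.9 CPM in Acss2-KO libraries and at 11.4, 8.57 and 10.7 CPM in WT libraries. Like Fmo2, it was lowest among the Acss2-KO libraries in replicate 2 and highest in replicate 3. Its choice by similarity to Fmo2 over these same libraries favours such a shared order. For Fmo1 the nearest genes were Tex2 at 0.14, Shmt2, the mitochondrial serine hydroxymethyltransferase, at 0.18 and Psd3 at 0.18. For Fmo5 they were Cideb, a lipid droplet protein, at 0.08, Tmem175 at 0.10 and Prkca at 0.10, and for Fmo4 they were Phf14 at 0.04, Phykpl at 0.07 and Ufl1 at 0.08.

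FMOs need FAD and NADPH, and share the microsomal membrane and many substrates with cytochrome P450 enzymes. Genes of 13 such related groups were counted in the same test: of 148 tested genes, 17 were higher and 60 were lower in Acss2-KO liver, or 52.0% called, with 36.5% of all genes as the background. The lower calls stand beside a median log2 fold change below 0 over all tested genes, as given above, which the other scalings brought near 0. Of the 148 genes, 77 were called with all libraries and 52 without both libraries high in genes of other tissues. Members of a list are not independent of each other, and some genes stand in more than 1 list.

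Of the 7 tested genes in the microsomal electron transfer list, 1 rose and 4 fell, with a median log2 fold change of -0.77. Cyb5b, 1 of these 4, is mitochondrial rather than microsomal. Por, the NADPH-cytochrome P450 reductase that feeds electrons to P450 enzymes but not to FMOs, was at 1911, 1168 and 1618 CPM in Acss2-KO libraries and at 685, 588 and 413 CPM in WT libraries. Por did not overlap between genotypes and was lowest among the Acss2-KO libraries in replicate 2. It rose by 1.48 on the log2 scale (SE 0.27, adjusted p = 0.0044). Cyb5b, the cytochrome b5 of the mitochondrial outer membrane, fell to 82.6 ± 37.1 CPM in Acss2-KO, against 273.5 ± 29.3 CPM in WT liver (-1.81, SE 0.30, adjusted p = 0.0034). Cyb5a, Cyb5r3 and Pgrmc1, of the cytochrome b5 system and its haem-binding partners, had log2 fold changes of -0.91, -0.77 and -0.92, and Pgrmc2 and Cyb5r1 did not pass, at -0.29 and 0.33. The count of 4 was 2 when WT replicate 1, WT replicate 2 or replicate 1 of Acss2-KO was left out. It was 1, Cyb5b alone, when replicate 3 of Acss2-KO or both libraries high in genes of other tissues were left out. Cyb5a also missed the threshold under upper-quartile and quantile scaling, with an adjusted p of 0.051 under the second.

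Of the 6 tested genes in the FAD supply list, 1 was higher and 2 were lower, with a median of -0.25. The 2 lower genes were Slc25a17 and Enpp3, not the genes of FAD synthesis. Rfk and Flad1, the kinase and synthase that make FMN and FAD, had log2 fold changes of -0.09 and -0.14 and did not pass. Slc25a17, a peroxisomal carrier of FAD and coenzyme A, fell by 0.95 (adjusted p = 0.0061). Slc52a2, a riboflavin transporter, had a log2 fold change of 0.81 and Enpp3 one of -0.96, Enpp1 did not pass at -0.36, and neither Slc52a2 nor Enpp3 passed without Acss2-KO replicate 3 or without both libraries high in genes of other tissues, nor Enpp3 without WT replicate 1. Of 11 genes of NADPH supply, 2 were lower and none was higher. Nadk2, the mitochondrial NAD kinase, fell by 1.29 (adjusted p = 0.0034), and without both libraries high in genes of other tissues 1 gene was higher and 2 were lower. The count of 2 was 5 without Acss2-KO replicate 2, and was 1 when replicate 3 of either genotype or WT replicate 2 was left out.

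Of 20 other flavin oxidases and monooxygenases, 2 were higher and 10 were lower, with a median of -0.81. Ddo, D-aspartate oxidase, Paox, a polyamine oxidase, and Prodh2, hydroxyproline dehydrogenase, fell, with log2 fold changes of -1.33, -0.88 and -0.95 (adjusted p = 0.0021, 0.0046 and 0.0081). The count of 10 was 6 without WT replicate 1 and 5 without WT replicate 2, and the count of 2 was 0 when replicate 3 of either genotype or WT replicate 1 was left out, and 1 when Acss2-KO replicate 1 was. Without both libraries high in genes of other tissues, 3 were higher and 5 lower. Of 4 tested genes in the list for reduction of N-oxides and hydroxylamines, which runs against FMO products, 3 were lower: Marc2, Cyb5r3 and Cyb5b. Cyb5r3 and Cyb5b stand in the electron transfer list as well, and Marc1 did not pass, at 0.24. The count of 3 was 1, Cyb5b, without Acss2-KO replicate 1, Acss2-KO replicate 3, WT replicate 1 or WT replicate 2, and without the pair.

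Among genes around FMO substrates, 3 of 10 for taurine and cysteamine were lower, with Vnn1, the pantetheinase that releases cysteamine, fallen by 1.85 (adjusted p = 0.0025). That count was 1 without Acss2-KO replicate 3 or WT replicate 2, and 2 without both libraries high in genes of other tissues. Of 14 genes for choline, carnitine and trimethylamine, 2 were higher and 6 lower, and 1 and 6 without this pair. Chka, a choline kinase, rose by 1.59 (adjusted p = 0.0022), while Pemt and Bbox1 fell, with log2 fold changes of -1.34 and -1.14 (adjusted p = 0.0023 and 0.0042). Pemt methylates phosphatidylethanolamine, and Bbox1 is the last enzyme of carnitine synthesis. Of 19 microsomal P450 genes, 3 were higher and 10 lower, with a median of -1.29, and reads of near-identical copies may be split among them. Cyp1a2 was at 8.52, 35.5 and 14.0 CPM in Acss2-KO libraries and at 491, 440 and 260 CPM in WT libraries. Cyp1a2 fell by 4.47 on the log2 scale (adjusted p = 0.0015). Cyp2b10, a phenobarbital-inducible form, was at 100.4, 20.5 and 95.7 CPM in Acss2-KO libraries and at 1.01, 1.495 and 2.45 CPM in WT libraries. Cyp2b10 did not overlap between genotypes and rose by 4.53 (SE 0.63, adjusted p = 0.0042), but did not pass without the pair (adjusted p = 0.16). Also among P450 genes, Cyp2c37 and Cyp2j5 fell, with log2 fold changes of -1.29 and -1.58. The count of 3 higher P450 genes was 1 without Acss2-KO replicate 1, Acss2-KO replicate 3 or WT replicate 2, and that of 10 lower ones was 5 without Acss2-KO replicate 3, WT replicate 1 or WT replicate 2, and without the pair 0 were higher and 6 lower.

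Regulators that have been linked to FMO genes in mammals were mixed. Of 16 such transcription factors, 1 was higher and 6 were lower. Ahr, the aryl hydrocarbon receptor, Trp53, the tumour suppressor p53, and Ppara, the fatty acid receptor of the fasting response, fell, with log2 fold changes of -1.40, -1.90 and -1.07 (adjusted p = 0.0043, 0.0015 and 0.0093). The count of 6 was 3 without Acss2-KO replicate 3 or WT replicate 3, and the higher gene, Foxo1, passed with an adjusted p of 0.045 and not without Acss2-KO replicate 1, Acss2-KO replicate 3, WT replicate 2 or WT replicate 3, nor at a minimum of 20 CPM or with the other variance model (adjusted p = 0.055). Without both libraries high in genes of other tissues, 1 was higher and 5 were lower. Of 7 tested genes in the list of Ahr, its targets and its partner, 1 was higher and 3 were lower. Tiparp rose by 1.73, while Cyp1a2, Ugt1a6a and Ahr itself, counted above as well, fell. Of 12 genes tied to NRF2, 2 were lower and none was higher, and 6 were lower without Acss2-KO replicate 2 and 1 when any of the other libraries was left out. Without the pair, 1 of the Ahr genes was higher and 3 were lower, and 2 of the NRF2 genes were higher and 0 lower.

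The levels of hepatic FMOs differ by sex in mice, and sex-biased liver genes moved in both directions in these males. Of 11 tested female-biased genes, 4 were higher and 6 were lower, and of 18 tested male-biased genes, 3 were higher and 7 were lower. Cyp17a1 and Cux2 rose by 2.22 and 1.30, while Abcd2 and Acot3, of the female-biased list as well, fell, with log2 fold changes of -2.62 and -2.09. Slco1a1 and Ugt2b1, of the male-biased list, fell too, at -3.28 and -2.89. The count of 4 was 2 when replicate 3 of either genotype was left out, and 1 when Acss2-KO replicate 1 was. The count of 3 higher male-biased genes was 0 when Acss2-KO replicate 3 or WT replicate 2 was left out, 2 when Acss2-KO replicate 2 was, and 1 when any of the others was. Without both libraries high in genes of other tissues, 3 female-biased genes were higher and 4 lower, and 0 male-biased genes were higher and 6 lower.

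**Figure D5:**
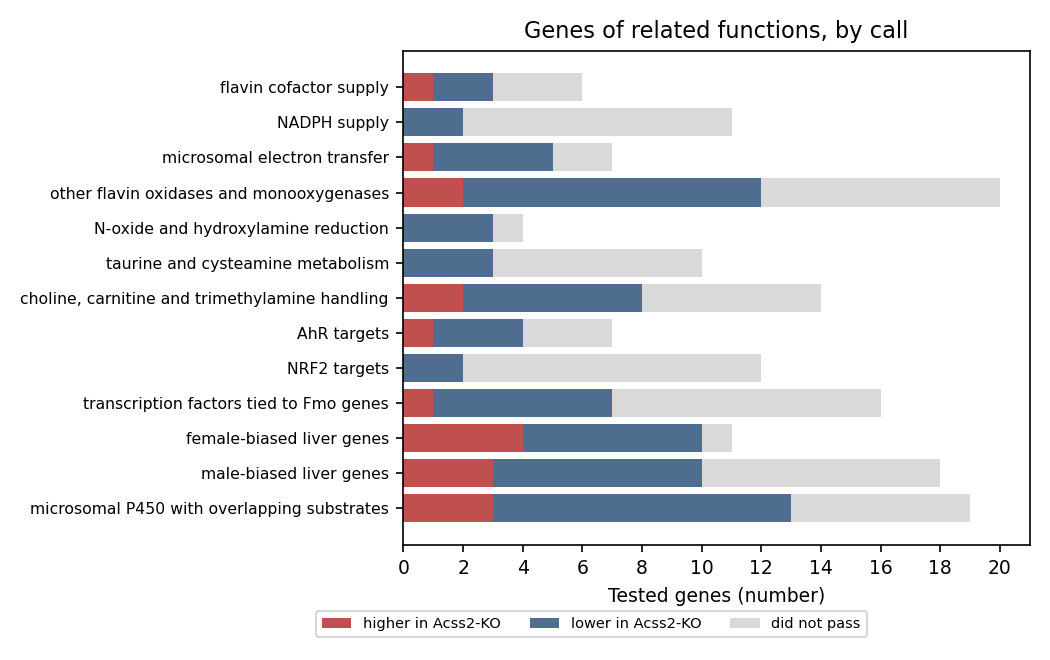
Number of tested genes in each list of related function that were higher in Acss2-KO (red), lower in Acss2-KO (blue) or did not pass (grey). Lower calls outnumber higher calls in each list, as in the electron transfer list with 1 higher and 4 lower and the P450 list with 3 higher and 10 lower.

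Markers of other liver cells were set beside the Fmo2 result, since in bulk tissue fewer cells of a type and less RNA per cell cannot be told apart. Of 12 sinusoidal endothelial markers, 1 was higher and 1 lower, and their sum ranged from 440 to 569 CPM in Acss2-KO and from 352 to 558 CPM in WT libraries. The count of 1 higher was 3 without Acss2-KO replicate 2, 2 without WT replicate 2, and 2 without both libraries high in genes of other tissues. Lyve1, of lymphatic and sinusoidal endothelium, rose by 2.55 and Clec4g fell by 1.01. Of 10 tested Kupffer cell markers, 4 were lower, with sums from 122 to 206 CPM in Acss2-KO and from 240 to 701 CPM in WT libraries. That count was 0 without WT replicate 2, 1 when replicate 3 of either genotype was left out, and 2 when Acss2-KO replicate 1 or the pair was. Of 10 tested stellate cell markers 3 were lower, and of 2 tested cholangiocyte markers 1 was higher and 1 lower. The 1 tested leukocyte marker was lower, but without WT replicate 2 it missed the minimum mean of 5 CPM and was not tested. Of 10 hepatocyte markers, 1 was higher and 2 were lower, with none higher without Acss2-KO replicate 3, WT replicate 2 or the pair, and of 7 tested pancreas and muscle genes none passed. Fabp4, the 1 tested adipocyte marker, was at 47.5, 18.0 and 54.6 CPM in Acss2-KO libraries and at 7.84, 7.78 and 13.8 CPM in WT libraries. Fabp4 had the same order of Acss2-KO libraries as Fmo2, as did the neighbour Prkab2. Among the Acss2-KO libraries, other higher genes such as Tiparp and Lyve1 were also lowest in replicate 2, and Chka and Cyp17a1 in replicate 1. Fabp4 passed the test, at 1.83 with an adjusted p of 0.015, but not without WT replicate 1, WT replicate 2 or the pair. Without the pair its adjusted p was 0.26. Adipoq, Plin1, Retn and Lep were not among the 12366 genes used here, so they were not analysed. The part of other cell types in the Fmo2 difference was not tested.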

How the data were processed

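RNA of 48-h fasted livers, 3 Acss2-KO and 3 WT libraries, was sequenced from Illumina TruSeq libraries (per the labels). The labels do not tie libraries to animals, so p-values measure the spread between libraries, which may be partly technical. The deposited values are log2 CPM with 2 decimals, and values under 1 CPM are listed at 0. The authors also deposited log2 fold changes, mean log2 CPM, p-values and adjusted p-values. The submitters' processing notes name Bowtie 0.12.2 and mm8 without their roles, and for multiply matching and antisense reads the counting was not given in the sources used here. The deposited coordinates match RefSeq GRCm38.p6, with gene starts a median of 8 bp apart for 11623 genes.

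A listed 0 was set to 1 CPM. The 9355 genes with mean values of 5 CPM or more, among them all 4 FMO genes, entered limma 3.58.1 (R 4.3.3) as log2(CPM + 1), with robust empirical Bayes and a mean-variance trend, without covariates, and Benjamini-Hochberg adjusted p-values under 0.05 were called. This scale understates changes of low genes. Depth was estimated from the steps between low values, and 5 CPM was 109 to 154 reads. Exon lengths came from GENCODE vM1. The procedure was tested on simulated data. Alternatives were pseudocounts of 0.5, 5 and none, no filter or a minimum of 20 CPM, 3 other scalings, another variance model, the replicate number as a block, and libraries left out.

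The FMO genes and the gene lists were chosen with earlier results of these data known. The genes to name were the 4 FMO genes, Acss2, up to 3 called genes with the smallest p in each direction from each list, all genes of FAD supply and electron transfer, called neighbours within 500 kb, and the 3 most similar genes of each FMO gene. Not every gene this rule chose is named, some results are not reported here, and Prss2, Acta1, Ckm and markers not analysed were named outside it.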

Additional observations from a re-analysis of the deposited data

How the results depend on the processing

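Fmo2 passed the test under all 17 alternatives, with log2 fold changes from 1.61 to 2.05. Fmo4 passed under none of those in which it was tested (0.06 to 0.33), and it was not tested at a minimum of 20 CPM. Leaving out 1 library gave -1.41 to -0.46 for Fmo1 and -1.19 to -0.57 for Fmo5. With the replicate number as a block, Fmo5 was at -0.88 and passed (adjusted p = 0.026). Same-numbered libraries had correlations of deviations of -0.10, -0.14 and 0.09, and differently numbered ones of -0.15 to 0.18. The labels give no pairing, and with 3 libraries per genotype these values cannot show whether samples were paired. No scaling turned the direction of an FMO gene.

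The genes called numbered 1853 (genes called higher 741, genes called lower 1112) at a minimum of 20 CPM, with fewer genes tested, and 2034 (715 higher, 1319 lower) without WT replicate 2 and Acss2-KO replicate 1 together, against 3413 as reported. Leaving out 1 library gave 1758 to 4028 calls, 519 to 1608 higher and 1239 to 2420 lower. The 77 called genes of related function (list counts) were 43 to 87 without 1 library, and the 4 called neighbouring genes were 0 to 5, and 2 at a minimum of 20 CPM. The lowest of these counts were found without Acss2-KO replicate 3, and the cause was not tested. The ratio of Fmo1 to Fmo5 turned to 0.08 without both libraries and ranged from -0.29 to 0.11 without 1 library.

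Changes of sign also occurred in genes that did not pass. Without both libraries, Flad1 was at 0.03, Rfk at 0.01 and Mettl13 at -0.03. Under median-of-ratios and upper-quartile scaling Rfk was at 0.04 and 0.00, and Vamp4 at 0.09 and 0.05, with 0.19 under quantile scaling. Without 1 library, Mettl13 ranged from -0.07 to 0.19, Ufl1 from 0.00 to 0.29 and Vamp4 from -0.12 to 0.12. Of 76 called genes that the naming rule chose beside the FMO genes, whether or not the text names them, 40 kept their call under every alternative in which they were tested. The 3 libraries per genotype and values rounded to 2 decimals limit small changes such as that of Fmo4.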
